A study of Homo sapiens with 35 samples.

Results

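The genes described here encode the proteins of the cytosolic ribosome. They were chosen by name, as rows of both deposited count tables called RPL, RPS, RPSA or RPLP with a number and at most an A, X or L suffix, that had at least 10 reads in at least 2 libraries. Of 82 rows with such a name, 81 met the count rule, among 59428 gene rows in the series. They comprise 49 genes of the large subunit and 32 of the small subunit. RPL10L had 0 reads and stayed outside, and the member nearest to the limit was RPL3L, with 10 or more reads in 9 of 35 libraries.

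The data are RNA-seq read counts per gene from 35 poly(A) RNA libraries of 4 human acute myeloid leukaemia cell lines. Libraries labelled DKO (SUV39H1/2 double knockout) and SKO (SUV39H1 knockout) were set against libraries with a control guide RNA (sgControl). Both enzymes trimethylate histone H3 at lysine 9, a mark of silent heterochromatin. There were 3 libraries each of U937 DKO, SKO and sgControl under TPA, of the same 3 U937 groups without TPA, and of THP-1 DKO, SKO and sgControl. MOLM-13 had 2 SKO and 2 sgControl libraries and OCI-AML-3 had 2 DKO and 2 sgControl libraries. The labels give no dose or time for TPA, a phorbol ester that activates protein kinase C. Library names carry a clone number 1 in THP-1 SKO and sgControl and 3 in untreated U937 DKO, so a group may represent a single clone, and an effect of that clone cannot be told apart from one of the genotype. Nothing says that replicates were separate cultures, so the spread behind the p-values may be technical only. The TPA libraries were in another deposited table than the untreated U937 libraries, so the table and the treatment cannot be told apart. Untreated U937 DKO and THP-1 DKO libraries carry a different date code, or none, than the SKO and sgControl libraries they are compared with, so that code and the genotype cannot be told apart either.

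The cytosolic ribosome has a large subunit, which forms peptide bonds, and a small subunit, which reads the messenger RNA. Nearly all of the proteins are used in a single copy per ribosome, and their genes are scattered over the chromosomes. Their messenger RNAs are among the most abundant in growing cells. Most begin with a cytosine followed by a run of pyrimidines, the 5′ terminal oligopyrimidine (TOP) tract, through which mTORC1 and LARP1 control translation and storage of these messages. A few genes have a paralog, such as RPS27L beside RPS27. Loss of a single copy of several of the genes causes Diamond-Blackfan anaemia in humans.

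Counted reads ranged from 31985767 to 61178704 per library. Levels below are in CPM, the counts scaled to a common library total, with trimmed mean of M-values scaling over all 35 libraries, and levels of different genes are compared only per kilobase of exon. Log2 fold changes come from edgeR fits of each line, with the Benjamini-Hochberg adjusted p at 0.05, and are scaled within that fit. SUV39H1 transcripts ranged from 82.3 to 83.4 CPM in U937 DKO, from 109 to 116 CPM in U937 SKO and from 62.2 to 68.9 CPM in U937 sgControl. In THP-1, SUV39H1 was at 54.7 to 55.9 CPM in DKO, 89.8 to 100 CPM in SKO and 31.98 to 37.3 CPM in sgControl, so in these lines without TPA the transcript was higher, not lower, in the libraries labelled DKO and SKO. Loss of the target is not shown by these counts, so DKO and SKO below are the libraries so labelled. Under TPA it was at 22 to 22.6 CPM in U937 DKO and 50.3 to 55.7 CPM in SKO, against 35.5 to 37.6 CPM in sgControl. In MOLM-13 SKO, SUV39H1 was at 7.19 to 8.08 CPM, against 27.6 to 29.8 CPM in sgControl, and in OCI-AML-3 DKO it was at 2.74 to 4.23 CPM, against 34.9 to 36.8 CPM in sgControl. SUV39H2 in the DKO libraries was at 30.3 to 35.0 CPM in U937, 9.30 to 10.6 CPM in U937 with TPA, 13.1 to 14.4 CPM in THP-1 and 17.6 to 20.5 CPM in OCI-AML-3, against 40.5 to 44.6, 19.4 to 20.9, 30.9 to 32.7 and 21.7 to 26.5 CPM in the sgControl libraries of each. Of 8 myeloid markers, 6 or 7 averaged at least 1 CPM in every group, but CD68 averaged under 1 CPM in each. The lymphoid markers summed to 103.9 to 489 CPM over all libraries, nearly all of it CD4, and the stromal, endothelial and epithelial markers to 68.3 to 678 CPM, nearly all of it PECAM1. Both genes are also known from monocytes. The erythroid markers summed to at most 3.0 CPM.

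Counts of ribosomal protein genes depend strongly on how reads were assigned. In the untreated U937 and THP-1 libraries, reads with several mapping positions, and reads over more than 1 gene, were not counted by the authors. For the TPA, MOLM-13 and OCI-AML-3 libraries the treatment of such reads is not given in the sources used here. The tables hold 1288 numbered pseudogene rows of these genes, at most 91 for RPL23A, and 77 of the 81 genes have at least 1. In 46 members, some exon bases also belong to another row, up to 53.4% of the bases of RPL10. The level per kilobase ran from 1037 CPM per kilobase for RPS18 (mean over 13 groups) to 0.0587 for RPL3L, the striated muscle paralog of RPL3. RPL8 had 964 and RPS12 had 950 CPM per kilobase. RPS10, with 40.3% of its exon bases in the read-through gene RPS10-NUDT3, had 0.676. RPS10, RPL36A and RPL17, all under 3 CPM per kilobase, are reported as uncertain. Fewer cells, or less RNA per cell, cannot be told apart in these bulk samples.

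Of the 81 genes, 64 had a start site in RefSeq's promoter table (GRCh38.p14). At the annotated start, 42 of the 64 (65.6%) began a run of at least 5 pyrimidines, against 5.23% of all 27305 promoters of the table. A run of at least 7 pyrimidines that touched the 5 bases on either side of the start was present in 50 members (78.1%), against 15.7% of all promoters. Within 250 bases before and 50 after the start, CCGGAA was present on either strand in 53.1% of members, against 17.5% of all promoters. ATGGCG was present in 34.4%, against 10.9%, GGGCGG in 56.2%, against 43.8%, CACGTG in 4.69%, against 7.27%, and TATAAA in 7.81%, against 12.1%; these matches are descriptions, not sites. The sequences below are the genes that the results turn on, 15 bases before and 15 from the start, 5′ to 3′, with the longest pyrimidine run near the start in capitals, from RefSeq GRCh38.p14. They are shown for the members with the most distinct values below, whether or not a run lies at the annotated start, and nothing is drawn from that about why a gene moved. RPL10A is at chr6:35468386-35468415 (plus strand), RPL10 at chrX:154398050-154398079 (plus), RPL39 at chrX:119791616-119791645 (minus), RPS4X at chrX:72277234-72277263 (minus), RPS27 at chr1:153990747-153990776 (plus), RPS27L at chr15:63157463-63157492 (minus), RPL36AL at chr14:49620612-49620641 (minus), RPS24 at chr10:78033848-78033877 (plus), RPS26 at chr12:56041903-56041932 (plus), RPL22 at chr1:6199581-6199610 (minus) and RPSA at chr3:39406705-39406734 (plus).
RPL10A: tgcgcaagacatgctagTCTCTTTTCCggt
RPL10: tttttccaCTCTCagaaatatacgtctgtc
RPL39: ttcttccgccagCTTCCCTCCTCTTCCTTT
RPS4X: gcagtctccagccccaaTTTCTacgcgcac
RPS27: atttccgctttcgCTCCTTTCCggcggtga
RPS27L: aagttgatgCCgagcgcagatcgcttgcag
RPL36AL: ctgTTTCTTCCCTTTCCTgttaggcgagag
RPS24: cggcgaatcgtggTTCTCTTTTCCTCCTTg
RPS26: gagacacataacctcgaTTTTCTTCCgcca
RPL22: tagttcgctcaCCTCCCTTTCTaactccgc
RPSA: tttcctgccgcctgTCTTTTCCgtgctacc

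The 81 genes together took 2.02% to 10.2% of counted reads, lowest in U937 DKO TPA and highest in MOLM-13 SKO. They took 4.93%, 5.02% and 5.01% in the U937 DKO libraries and 4.66%, 4.58% and 4.60% in U937 SKO, against 6.57%, 5.99% and 6.07% in U937 sgControl. In THP-1 the direction of the read share was the opposite, with 7.60%, 7.48% and 7.54% in DKO and 7.37%, 7.24% and 7.45% in SKO, against 6.62%, 6.12% and 6.10% in sgControl. MOLM-13 SKO libraries had 10.2% and 10.0%, against 8.55% and 8.69% in sgControl. In each of these comparisons the groups did not overlap. OCI-AML-3 DKO libraries had 6.58% and 6.75%, against 6.58% and 6.37% in sgControl, a difference in means of 0.193 percentage points that is close to the spread between libraries. Under TPA the share was 2.26%, 2.02% and 2.14% in U937 DKO and 3.83%, 3.70% and 3.78% in SKO, against 4.36%, 4.46% and 4.33% in sgControl. The mean in U937 DKO TPA was 0.429 times that of untreated U937 DKO, in SKO TPA 0.817 times that of untreated SKO, and in sgControl TPA 0.706 times that of untreated sgControl. Exact two-sided permutation tests over libraries gave p = 0.1 in the 12 comparisons of 3 against 3, the smallest that size allows (adjusted p = 0.117 over 14 comparisons), and 0.3333 in the comparisons of 2 against 2. THP-1 DKO exceeded THP-1 SKO by 0.187 percentage points, a direction that turned to -0.748 when the reads were divided by the library total scaled by trimmed mean of M-values. The excess of THP-1 DKO over sgControl is also one of read share. On scaled counts, 36 members were higher in DKO and 23 lower, where 31.9% and 33.7% of all genes were. RPL8 averaged 1859 CPM in THP-1 DKO, against 2280 CPM in sgControl, and RPS18 averaged 2467 CPM, against 2021 CPM. The reads of mitochondrially encoded genes moved beside some of these shares, with 2.81% to 2.93% in U937 DKO TPA, against 6.001% to 6.14% in sgControl TPA, and 9.39% and 9.49% in MOLM-13 SKO, against 6.995% and 7.44% in sgControl; their part in the result was not tested.

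**Figure D1:**
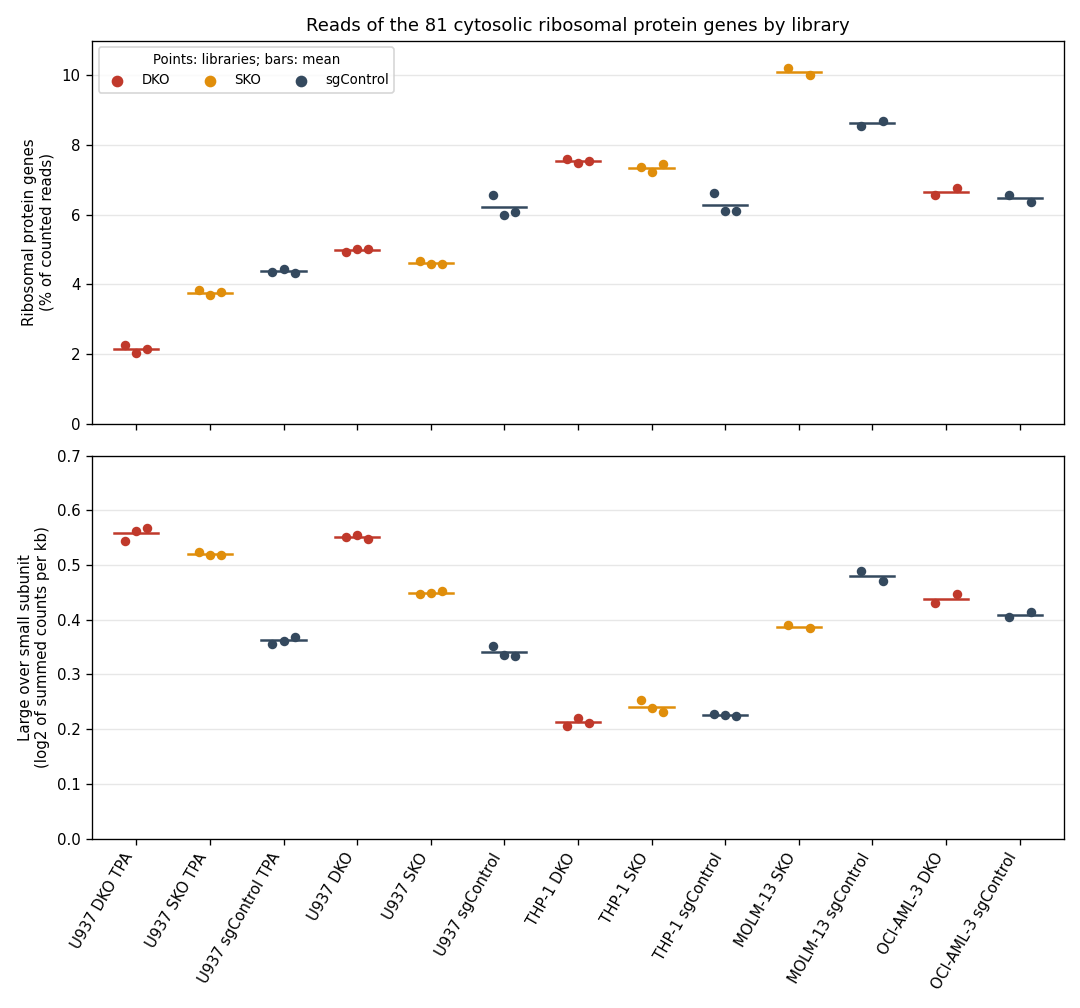
Upper plot: percent of counted reads in the 81 genes for each of the 35 libraries (points) with group means (bars), DKO and SKO left of their sgControl. Lower plot: log2 of the summed counts per kilobase of large over small subunit genes. The U937 DKO TPA libraries sit between 2.02% and 2.26% and the MOLM-13 SKO libraries at 10.0% and 10.2%, while the lower plot stays within 0.7.

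Summed per kilobase, large subunit genes exceeded small subunit genes in all 35 libraries, and the ratio moved far less than the total. The sums cover 49 large and 32 small subunit genes. A ratio above 0 therefore depends on these numbers and does not show a higher level per gene in the large subunit. The log2 ratio averaged 0.551 ± 0.003 in U937 DKO and 0.450 ± 0.003 in SKO, against 0.340 ± 0.010 in sgControl (SD, n = 3 each). Under TPA it was 0.558 ± 0.013 in DKO and 0.520 ± 0.003 in SKO, against 0.362 ± 0.006 in sgControl. In these comparisons the groups did not overlap (exact permutation p = 0.1, the smallest possible; adjusted 0.127). The U937 differences of 0.211 for DKO and 0.109 for SKO were 0.113 and 0.0478 without RPL10A and the X-linked members, an alternative chosen after the values were seen. With the median member in place of the sum, the U937 DKO difference was -0.00301. In THP-1 the ratio differed from sgControl by -0.0133 in DKO and 0.0156 in SKO, and the sign of both turned with the median member. MOLM-13 SKO had 0.387 ± 0.005, against 0.480 ± 0.014 in sgControl (n = 2 each).

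In U937 without TPA, most ribosomal protein messages were lower in the libraries labelled DKO and SKO. In SKO, 70 of 80 tested genes fell and 6 rose, where 31.2% of all genes tested fell and 30.7% rose, and the median log2 fold change was -0.51, against -0.00 over all genes. In DKO, 66 fell and 8 rose, where 34.5% of all genes fell and 33.2% rose, with a median of -0.56, against -0.01 over all genes. The median member of the large subunit had -0.55 in DKO and -0.49 in SKO, and that of the small subunit -0.56 and -0.52, while the summed ratio above was higher in both than in sgControl. RPL13A, a large subunit protein also known from a translational silencing complex, was at 1158, 1201 and 1189 CPM in DKO and 1102, 1086 and 1074 in SKO, against 1920, 1720 and 1735 in sgControl. RPS3, at the messenger RNA entry side of the small subunit, was at 1022, 1077 and 1067 CPM in DKO and 1023, 986 and 992 in SKO, against 1723, 1584 and 1601 in sgControl. For both genes every DKO and SKO library was below every sgControl library, and the log2 fold changes in SKO were -0.72 ± 0.03 and -0.71 ± 0.03 (SE). RPL38 was lowest in DKO, at 150, 162 and 150 CPM, with 237, 219 and 225 in SKO, against 386, 304 and 327 in sgControl (log2 -1.14 ± 0.06 in DKO, adjusted p = 9.6e-17). Between DKO and SKO, 30 genes were lower in DKO and 16 higher, where 24.9% and 24.1% of all genes were. Summed levels of 8 myeloid markers were 1209 to 1265 CPM in DKO and 1248 to 1271 in SKO, against 655 to 666 CPM in sgControl. PECAM1 was at 268 to 284 CPM in DKO and 179.8 to 192.5 CPM in SKO, against 89.7 to 97.5 CPM in sgControl, and the part of these markers in the result was not tested.

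RPL10A, a large subunit protein encoded on chromosome 6, moved the other way in U937. It was at 1713, 1786 and 1745 CPM in DKO and 1353, 1298 and 1308 in SKO, against 751, 668 and 670 in sgControl. The log2 fold change was 1.32 ± 0.04 in DKO (adjusted p = 2.2e-22) and 0.92 ± 0.04 in SKO (adjusted p = 1.4e-18), the highest of the members in both. Under TPA it was at 769, 759 and 814 CPM in DKO and 1220, 1211 and 1231 in SKO, against 529, 536 and 522 in sgControl, again with no overlap. The 118 other genes within 5 Mb of RPL10A had a median log2 fold change of 0.12 in DKO and 0.21 in SKO, and their part in the result was not tested. In THP-1 the levels of RPL10A were 910, 906 and 916 CPM in DKO and 1016, 966 and 1002 in SKO, against 920, 838 and 798 in sgControl. In the fit of that line RPL10A passed the test as higher, by 0.20 in DKO and 0.23 in SKO. It also passed as higher in MOLM-13 SKO, by 0.35, and in OCI-AML-3 DKO, by 0.13.

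The 4 members on the X chromosome also rose in U937 DKO and SKO. RPS4X, a small subunit protein, was at 1307, 1403 and 1408 CPM in DKO and 1352, 1321 and 1349 in SKO, against 1004, 970 and 986 in sgControl. RPL10, near the peptidyl transferase centre, was at 1022, 1095 and 1066 CPM in DKO and 984, 972 and 950 in SKO, against 846, 752 and 770 in sgControl. RPL39, at the exit tunnel, was at 289, 298 and 280 CPM in DKO and 311, 292 and 329 in SKO, against 257, 221 and 235 in sgControl. In each gene the DKO and SKO libraries did not overlap those of sgControl, and log2 fold changes were 0.47, 0.42 and 0.28 in DKO and 0.44, 0.29 and 0.38 in SKO. RPL36A rose by 0.89 in DKO and 0.57 in SKO at under 5 CPM. Other X-chromosomal genes moved in the same direction, by a median of 0.38 in DKO and 0.43 in SKO above that of all genes (314 genes), and their part in the result was not tested. In THP-1 that median was -0.02 in DKO and -0.01 in SKO (351 genes). RPS4X rose there by 0.30 and 0.34, and RPL36A by 0.59 and 0.56 at low counts. RPL39 had -0.01 in DKO, not past the test, and rose by 0.25 in SKO. RPL10 had -0.07 and 0.10 and passed in neither. In THP-1 SKO 59 of 81 members rose, where 20.6% of all genes did.

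**Figure D2:**
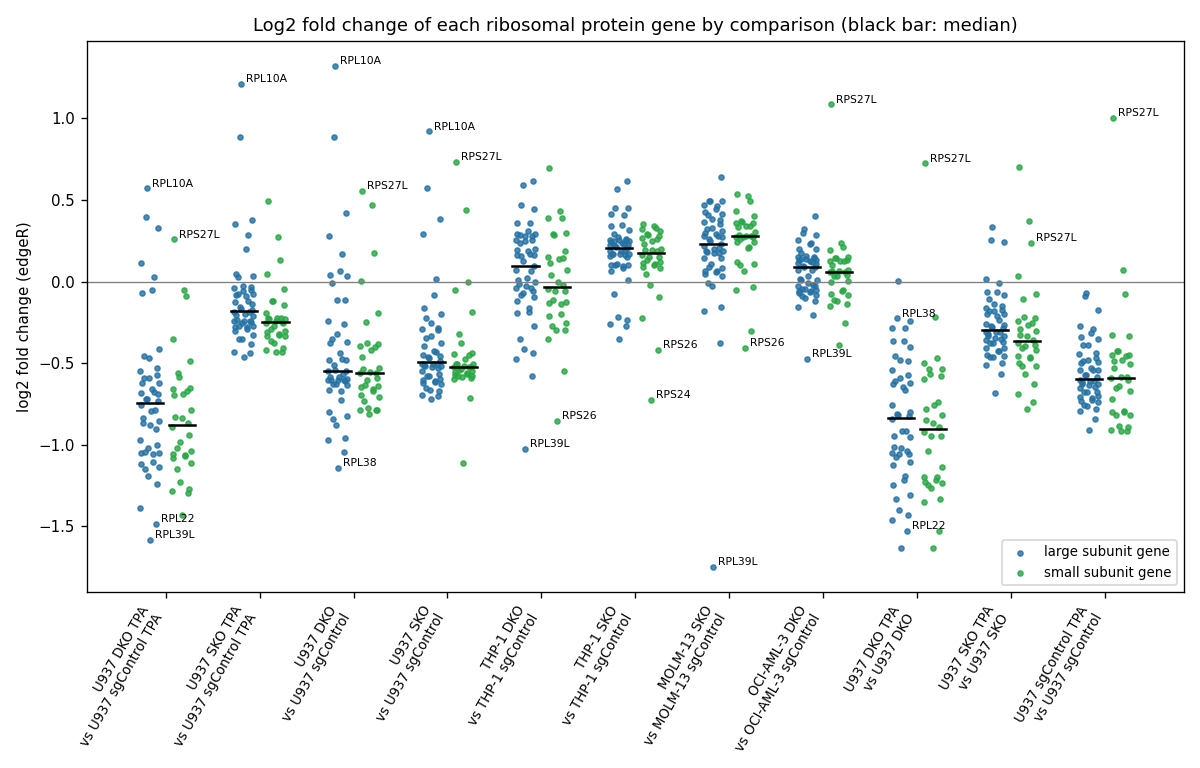
Log2 fold change (vertical axis) of every tested member in 11 comparisons, large subunit genes in blue and small subunit genes in green, with the median of each as a black bar. Named points lie over 0.55 from their median; in the 4 U937 comparisons with sgControl the points at the top are RPL10A, at 1.32 in DKO without TPA.

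In THP-1, ribosomal protein messages were mostly higher in the libraries labelled SKO and split in those labelled DKO. In SKO, 59 of 81 genes rose and 5 fell, where 20.6% of all genes rose and 22.8% fell, and the median was 0.19, against 0.01 over all genes. In DKO, 36 rose and 23 fell, where 31.9% and 33.7% of all genes did, and the median of 0.04 was close to the 0.05 of all genes. RPL22, an RNA-binding protein of the large subunit, was at 134, 131 and 136 CPM in DKO and 176, 161 and 177 in SKO, against 114, 114 and 108 in sgControl. RPL5, which carries 5S RNA and binds MDM2, was at 1985, 1968 and 2001 CPM in DKO and 2654, 2440 and 2668 in SKO, against 2020, 1870 and 1824 in sgControl. RPL22 (log2 0.62 ± 0.04) and RPL5 (0.45 ± 0.04) were clear of sgControl in SKO, and RPL5 in DKO overlapped sgControl on the scale of all libraries. Summed myeloid markers were 1346 to 1362 CPM in DKO and 1055 to 1093 CPM in SKO, against 1019 to 1066 CPM in sgControl. Among them, LYZ was at 468.2 to 486.2 CPM in DKO and 257.5 to 274.1 CPM in SKO, against 89.79 to 95.8 CPM in sgControl. SPI1 went the other way, at 167.5 to 180.0 CPM in DKO, against 230.5 to 253.3 CPM in sgControl. So did CEBPA, at 114.8 to 121.2 CPM in DKO, against 163.4 to 182.7 CPM in sgControl. PECAM1 was at 492 to 502.5 CPM in DKO and 392.3 to 419 CPM in SKO, against 607.5 to 677 CPM in sgControl. The part of these markers in the result was not tested. Between DKO and SKO, 43 genes were lower in DKO and 6 were higher, where 28.5% and 25.3% of all genes were.

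RPS24 and RPS26 fell in THP-1 while most members did not. RPS24, a Diamond-Blackfan gene on chromosome 10, was at 687, 707 and 685 CPM in DKO and 645, 622 and 695 in SKO, against 1089, 1100 and 1071 in sgControl, with log2 fold changes of -0.55 ± 0.04 and -0.72 ± 0.04. The 33 other genes within 5 Mb of RPS24 had a median of -1.09 in both, and 396 other chromosome 10 genes a median of -0.97 in DKO and -0.96 in SKO below that of all genes. The part of the chromosome in the fall of RPS24 in THP-1 was not tested. In U937, chromosome 10 genes had a median of -0.05 in DKO and -0.07 in SKO relative to all genes. RPS24 fell there by 0.71 and 0.58, where 66 and 70 of 80 members, and 34.5% and 31.2% of all genes, fell. RPS26, on chromosome 12 and another Diamond-Blackfan gene, was at 71.2, 66.8 and 65.8 CPM in DKO and 92.7, 97.8 and 103.7 in SKO, against 144, 126 and 125 in sgControl. It fell by 0.85 and 0.42, while the 91 other genes within 5 Mb had a median of -0.10 in DKO and -0.03 in SKO. RPS26 also fell in U937 DKO (by 0.79), U937 SKO (by 0.44) and MOLM-13 SKO (by 0.41), and had -0.12 in OCI-AML-3 DKO, where it did not pass the test.

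In MOLM-13 SKO, 66 of 81 genes rose and 4 fell, where 31.8% of all genes rose and 32.2% fell, with a median of 0.27, against 0.02 over all genes. RPL12, at the base of the stalk, was at 1614 and 1587 CPM in SKO, against 1029 and 1038 in sgControl (log2 0.64 ± 0.02, adjusted p = 6.5e-21). RPS2, in the core of the small subunit, rose by 0.54 and RPS12 by 0.52. RPL39L, RPS26 and RPL36AL were among those that fell. Summed myeloid markers were 8828 and 8982 CPM in SKO, against 1648 and 1729 CPM in sgControl, mostly LYZ. MPO went the other way, at 119.3 and 119.5 CPM in SKO, against 349.0 and 355.6 CPM in sgControl. PECAM1 was at 336 and 348 CPM in SKO, against 105.1 and 103.0 CPM in sgControl, and the part of these markers in the result was not tested. In OCI-AML-3 DKO, 29 of 81 genes rose and 7 fell, where 24.3% and 25.6% of all genes did, and the median was 0.07, against 0.02. With any of the 4 libraries left out, 7 to 15 genes were higher. Summed myeloid markers were 1981 to 2003 CPM in OCI-AML-3 DKO, against 1001 to 1049 CPM in sgControl. Among them, LYZ was at 1109 and 1074 CPM in DKO, against 235.1 and 232.5 CPM in sgControl. CEBPA went the other way, at 130.7 and 139.8 CPM in DKO, against 183.0 and 157.8 CPM in sgControl. PECAM1 was at 227 and 230 CPM in DKO, against 71.1 and 68.2 CPM in sgControl. The part of these markers was not tested. RPSA, the laminin-binding small subunit protein, was at 616 and 620 CPM in OCI-AML-3 DKO, against 840 and 791 in sgControl (log2 -0.39 ± 0.05).

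**Figure D3:**
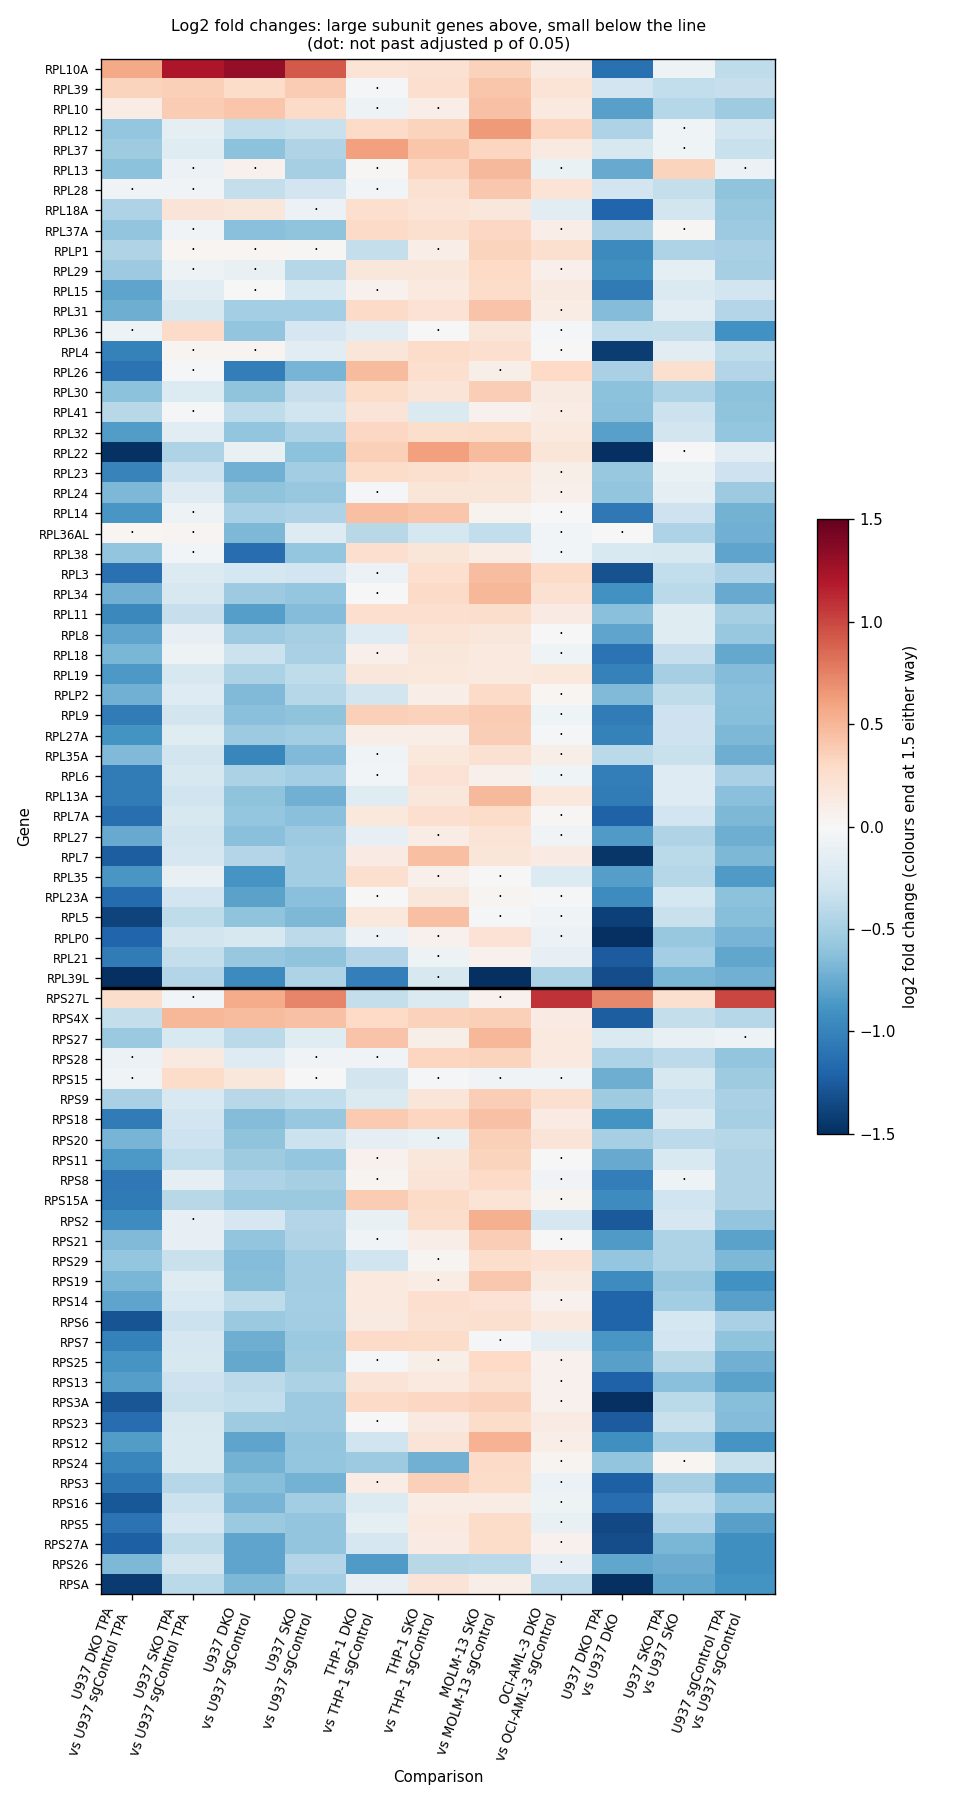
Log2 fold change of the 76 members with a mean level of at least 3 CPM per kilobase (rows, large subunit above the line, small below) in 11 comparisons (columns). Dots mark values not past an adjusted p of 0.05. The U937 columns are mostly blue, MOLM-13 SKO and THP-1 SKO mostly red, and RPL10A is red in all 4 U937 columns against sgControl of the same treatment, at 0.57 to 1.32.

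Almost all members were lower with TPA in U937. In sgControl, 74 of 80 genes were lower with TPA and 1 was higher, where 33.2% of all genes were lower and 34.6% higher, and the median was -0.59, against 0.05 over all genes. In SKO, 67 were lower and 4 higher, where 31.4% and 31.5% of all genes were, with a median of -0.32, against 0.04. In DKO, 77 were lower and 1 higher, where 36.2% and 36.9% of all genes were, with a median of -0.88, against 0.03. RPSA was at 323, 290 and 307 CPM in DKO TPA, against 948, 1002 and 992 in DKO without TPA. In sgControl, RPSA was at 835, 832 and 834 CPM with TPA, against 1620, 1528 and 1528 without. RPLP0, the stalk base, was at 512, 417 and 476 CPM in DKO TPA, against 1444, 1529 and 1504 in DKO without TPA, and it fell by 1.63, as did RPSA. The gene that rose in sgControl and in DKO was RPS27L. Summed myeloid markers were 1265 to 1294 CPM in sgControl TPA, against 655 to 666 CPM in sgControl without TPA, and PECAM1 was at 580.3 to 600.1 CPM, against 89.7 to 97.5 CPM. In DKO the myeloid sums were 1439 to 1472 CPM with TPA, against 1209 to 1265 CPM without. In SKO they were 1188 to 1216 CPM with TPA, against 1248 to 1271 CPM without. Single markers went both ways. In DKO, ITGAM was at 310.2 to 347.8 CPM with TPA, against 136.7 to 139.2 CPM without. LYZ in DKO was at 150.1 to 176.3 CPM with TPA, against 376.9 to 406.2 CPM without. CEBPA in sgControl was at 45.9 to 48.75 CPM with TPA, against 94.59 to 106.6 CPM without. The part of the markers in the result was not tested.

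With TPA, DKO differed from sgControl more than SKO did. In DKO TPA, 70 of 80 genes fell and 5 rose relative to sgControl TPA, where 36.5% of all genes fell and 34.1% rose, and the median was -0.81, against -0.05 over all genes. In SKO TPA, 56 fell and 9 rose relative to sgControl TPA, where 24.6% and 25.8% of all genes did, with a median of -0.22, against -0.00. Set against SKO TPA, DKO TPA had 74 genes lower and 1 higher, where 32.4% and 31.3% of all genes were, with a median of -0.63. RPL22 was at 36.0, 28.5 and 33.0 CPM in DKO TPA and 66.1, 67.5 and 65.6 in SKO TPA, against 93.8, 90.2 and 90.9 in sgControl TPA (log2 -1.48 ± 0.06 in DKO). RPL5 was at 312, 250 and 271 CPM in DKO TPA and 563, 558 and 556 in SKO TPA, against 743, 741 and 707 in sgControl TPA. The DKO TPA group was the lowest of the 13 groups for 70 of the 81 genes and MOLM-13 SKO the highest for 51, and the highest group exceeded the lowest by a median of 4.44-fold. The lowest and highest groups were not counted over all genes, so these counts have no background beside them.

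The log2 change with TPA differed between the libraries labelled by genotype. It was higher in SKO than in sgControl for 61 of 80 genes and lower for 1, RPS27L, which rose in both, where 19.6% and 18.1% of all genes were, with a median difference of 0.29. In DKO it was lower than in sgControl for 51 genes and higher for 6, where 27.8% and 21.7% of all genes were, with a median difference of -0.32. RPL22, RPL4 and RPLP0 had the largest negative differences in DKO, at -1.35, -1.04 and -0.93. RPL36AL, RPL38 and RPL36 had the largest positive ones, at 0.72, 0.57 and 0.54. RPL4, a large subunit protein at the exit tunnel, was at 969, 842 and 907 CPM in DKO TPA, against 2397, 2604 and 2533 in DKO without TPA, while sgControl with TPA had 1866, 1868 and 1804 CPM, against 2479, 2395 and 2417 without. The differences share the untreated and the TPA sgControl libraries.

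The differences of SKO and DKO from sgControl were not the same in U937 and THP-1, in both of which SUV39H1 transcripts were higher in the libraries labelled as knockouts. The difference for SKO was lower in U937 than in THP-1 for 67 of 80 genes and higher for 4, where 22.7% and 24.1% of all genes were, with a median difference of -0.65. For DKO, 57 genes were lower and 7 higher, where 24.7% and 29.7% of all genes were, with a median difference of -0.48. In 53 genes SKO passed the test as lower in U937 and as higher in THP-1, and in 29 genes DKO did. Of all genes, 31.2% were lower in U937 SKO and 20.6% higher in THP-1 SKO. For DKO these shares were 34.5% and 31.9%. The share of all genes that met both conditions was not counted, so the 53 and 29 have no background beside them. RPS27L passed the opposite way in SKO and in DKO, and RPS15 in DKO. Of the sgControl libraries alone, 38 genes were higher and 27 lower in THP-1 sgControl than in U937 sgControl, where 42.3% and 33.9% of all genes were, with a median of 0.05, against 0.13 over all genes. Without U937 sgControl replicate 3 the direction turned, with 28 higher and 33 lower and a median of -0.06. RPS25 was higher in THP-1 sgControl (log2 1.03 ± 0.04) and RPS26 lower (log2 -1.19 ± 0.05).

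Among paralogs, the lesser copy often did not follow the main one. RPS27L, a gene also known as a target of p53, was at 50.0, 49.4 and 54.2 CPM in U937 DKO and 57.5, 58.8 and 57.2 in SKO, against 35.8, 36.2 and 32 in sgControl. It rose there by 0.56 in DKO and 0.73 in SKO. The 52 other genes within 5 Mb of RPS27L had medians of 0.35 and 0.38, and their part in the result was not tested. RPS27 was at 371, 396 and 376 CPM in U937 DKO and 441, 437 and 448 in SKO, against 540, 480 and 484 in sgControl. In OCI-AML-3, RPS27L was at 81.3 and 80.7 CPM in DKO, against 37.8 and 39.1 in sgControl, the highest change of any member in that line (log2 1.09 ± 0.06, adjusted p = 5.3e-20). MDM2, another p53 target, rose in OCI-AML-3 DKO by 0.91. It is given for this line only, and the part of p53 in either rise was not tested. With TPA, RPS27L in sgControl was at 71.5, 70.9 and 64.8 CPM, against 35.8, 36.2 and 32 without (log2 1.00 ± 0.05). In THP-1 it was at 31.9, 30.7 and 34.3 CPM in DKO and 33.5, 41.3 and 38.6 in SKO, against 44.2, 47.8 and 41.0 in sgControl. As a share of the pair per kilobase, RPS27L ran from 0.367% in THP-1 DKO to 2.92% in U937 DKO TPA, so RPS27 carried nearly all of the pair's level in every group. The RefSeq start of RPS27L, printed above, has no pyrimidine run, and that of RPS27 has.

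RPL39L, a paralog of RPL39 known from mouse testis, fell in the DKO or SKO libraries of all 4 lines, and RPL39 rose in all comparisons of DKO or SKO with sgControl except THP-1 DKO (log2 -0.01, not past the test). It was at 6.93, 6.61 and 7.36 CPM in U937 DKO and 11.1, 9.94 and 8.24 in SKO, against 14.2, 12.6 and 13.8 in sgControl. In THP-1 it was at 6.26, 6.90 and 5.95 CPM in DKO and 10.1, 11.4 and 13.7 in SKO, against 14.4, 14.4 and 12.9 in sgControl; the SKO libraries overlapped sgControl, and SKO did not pass the test (adjusted p = 0.066). MOLM-13 SKO had 2.09 and 2.46 CPM, against 7.42 and 8.0 in sgControl, the largest fall of a member in that line (log2 -1.75 ± 0.16). OCI-AML-3 DKO had 7.26 and 7.84 CPM, against 10.96 and 10.2 in sgControl (log2 -0.47), a fall that did not pass the test without OCI-AML-3 DKO replicate 1 (log2 -0.43, edgeR adjusted p = 0.055). As a share of the pair per kilobase, RPL39L was 4.74% ± 0.38 in U937 DKO and 6.09% ± 1.04 in SKO, against 10.5% ± 0.28 in sgControl (SD, n = 3 each), and 1.10% ± 0.13 in MOLM-13 SKO, against 4.77% ± 0.11 in sgControl (n = 2 each). The 40 other genes within 5 Mb of RPL39L had a median of -0.08 in U937 DKO and -0.19 in MOLM-13 SKO.

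RPL36AL made up at least 99.2% of the RPL36A pair per kilobase in every group, a share that rests on the low count of RPL36A. It was at 90.9, 101 and 95.0 CPM in U937 DKO, against 160, 149 and 147 in sgControl, and at 95.5, 93.8 and 90.5 CPM in DKO TPA, against 91.2, 97.2 and 87.2 in sgControl TPA. With TPA, RPL36AL in DKO differed from DKO without TPA by less than its error (log2 0.00 ± 0.05), where 77 of 80 genes fell. RPL3L had at most 0.452 CPM in any library, against a lowest RPL3 level of 525 CPM, and it was too low to test in U937.

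**Figure D4:**
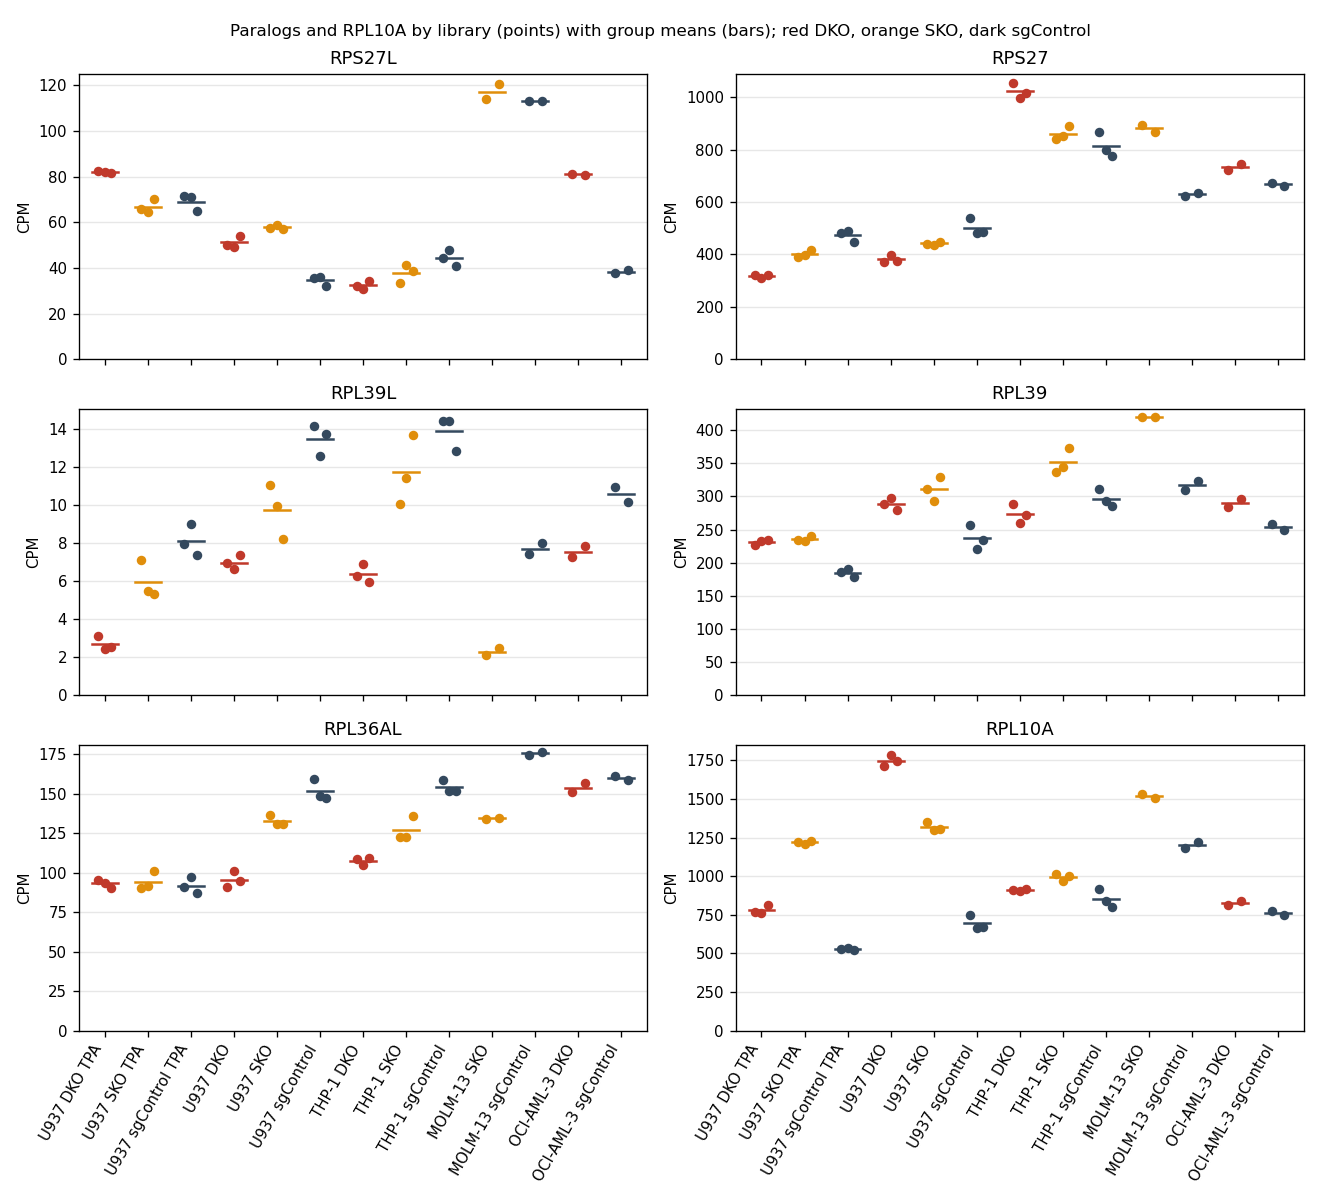
Levels in CPM by library (points) and group mean (bars) for RPS27L, RPL39L, RPL36AL, RPS27, RPL39 and RPL10A, DKO and SKO left of sgControl. RPL39L lies at 2.09 and 2.46 CPM in MOLM-13 SKO, against 7.42 and 8.0 in sgControl, and RPS27L at 81.3 and 80.7 CPM in OCI-AML-3 DKO, against 37.8 and 39.1.

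The stalk proteins, which recruit translation factors, did not move as a unit. In U937 SKO, RPLP0 and RPLP2 fell by 0.39 and 0.43, while RPLP1 had 0.01 and did not pass the test. RPLP1 was at 1383, 1427 and 1414 CPM in U937 DKO and 1392, 1402 and 1372 in SKO, against 1447, 1326 and 1346 in sgControl, so all groups overlapped. The 49 other genes within 5 Mb of RPLP1 had a median of 0.34 in U937 DKO and 0.33 in SKO. Near RPLP0 the medians were -0.14 and -0.09, and near RPLP2 0.02 and -0.01. The part of these neighbours in the result was not tested. In THP-1 DKO, RPLP1 and RPLP2 fell by 0.35 and 0.27, and RPLP0 had -0.08, not past the test. In DKO TPA all 3 stalk genes fell relative to sgControl TPA, RPLP0 by 1.19, RPLP1 by 0.45 and RPLP2 by 0.72. RPS6, the target of S6 kinase, was at 1019, 1084 and 1055 CPM in U937 DKO and 1079, 1059 and 1108 in SKO, against 1600, 1524 and 1514 in sgControl. RPL11, which binds MDM2 together with RPL5, was at 785, 818 and 815 CPM in U937 DKO and 924, 868 and 926 in SKO, against 1494, 1339 and 1431 in sgControl. RPS27A, made as a fusion with ubiquitin, fell in U937 DKO by 0.79 and in SKO by 0.59, and RPS14 by 0.38 and 0.51. Of the 20 members known from Diamond-Blackfan anaemia, 18 fell in U937 DKO and 19 in SKO, and 0 rose in either, where 66 and 70 of the 80 tested members, and 34.5% and 31.2% of all genes, fell. In THP-1 SKO 12 of the 20 rose and 2 fell, where 59 of 81 members and 20.6% of all genes rose. In DKO TPA 19 fell relative to sgControl TPA, where 70 of 80 members and 36.5% of all genes fell.

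Other genes of the same pathway are given from lists chosen by function. Of 65 genes of ribosome biogenesis and RNA polymerase I, 55 fell in U937 DKO and 58 in SKO, where 34.5% and 31.2% of all genes fell, and 5 rose in each, with medians of -0.53 and -0.55. In MOLM-13 SKO 57 of the 65 fell and 1 rose, where 32.2% and 31.8% of all genes did, with a median of -0.55, in the libraries where ribosomal protein messages rose. In THP-1 DKO 51 fell and 2 rose, where 33.7% and 31.9% of all genes did (median -0.41). In THP-1 SKO 9 fell and 23 rose, where 22.8% and 20.6% of all genes did (median 0.01). In OCI-AML-3 DKO 45 fell and 4 rose, where 25.6% and 24.3% of all genes did (median -0.27). NOLC1 fell by 1.66 and DDX21 by 1.48 in THP-1 DKO, and both are on chromosome 10, whose genes fell as a group in those libraries. MRTO4, an assembly factor of the stalk, fell by 1.02 in U937 DKO and by 0.93 in SKO, and UTP20, of the small subunit processome, fell by 1.04 in MOLM-13 SKO. With TPA 60 of the 65 were lower in U937 sgControl, where 33.2% of all genes were (median -0.91).

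Of 24 tested TOP genes that are no ribosomal proteins of the rule, such as elongation and initiation factors, 21 fell and 2 rose in U937 DKO, and 19 fell and 0 rose in SKO, where 34.5% and 31.2% of all genes fell. In MOLM-13 SKO 16 rose and 4 fell, where 31.8% and 32.2% of all genes did, and in THP-1 SKO 17 rose and 2 fell, where 20.6% and 22.8% did. In THP-1 DKO 13 rose and 6 fell, where 31.9% and 33.7% did, and in OCI-AML-3 DKO 7 rose and 2 fell, where 24.3% and 25.6% did. EEF1B2, an elongation factor subunit, fell by 0.69 in U937 DKO and 0.65 in SKO, while EIF4A2 and TPT1 rose in MOLM-13 SKO by 0.59 and 0.69. Of 77 tested mitochondrial ribosomal protein genes, 61 fell and 7 rose in U937 DKO, and 66 fell and 3 rose in SKO. In THP-1 DKO 65 fell and 3 rose, and in THP-1 SKO 28 fell and 6 rose. In MOLM-13 SKO 61 fell and 5 rose, and in OCI-AML-3 DKO 22 fell and 7 rose. The shares of all genes that fell and rose are those given above for the same comparisons, 34.5% and 31.2% falling in U937 DKO and SKO, 33.7% and 22.8% in THP-1 DKO and SKO, 32.2% in MOLM-13 SKO and 25.6% in OCI-AML-3 DKO. MYC, which drives transcription of ribosome genes, fell by 0.73 in U937 DKO and by 1.52 in SKO, fell by 0.11 in THP-1 DKO, rose by 0.29 in THP-1 SKO and fell by 0.23 in MOLM-13 SKO. In OCI-AML-3 DKO MYC had -0.02 and did not pass the test. Among proteins that escort or watch over ribosomal proteins, 14 of 18 fell in U937 DKO, where 34.5% of all genes did, and 16 of 19 in MOLM-13 SKO, where 32.2% did. IPO5, an import receptor, fell by 0.82 and 0.86. With a pyrimidine run of at least 7 bases near the start, 50 members had a median of -0.57 in U937 DKO and -0.52 in SKO, against -0.31 and -0.39 in the 14 members with a shorter run, and 0.28 in MOLM-13 SKO, against 0.27. In THP-1 the medians were 0.08 against -0.06 in DKO and 0.19 against 0.19 in SKO. In OCI-AML-3 DKO they were 0.07 against 0.13. The 14 members include RPL10, RPS4X and RPS27L, which rose in U937 DKO and SKO, and the part of the run was not tested.

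**Figure D5:**
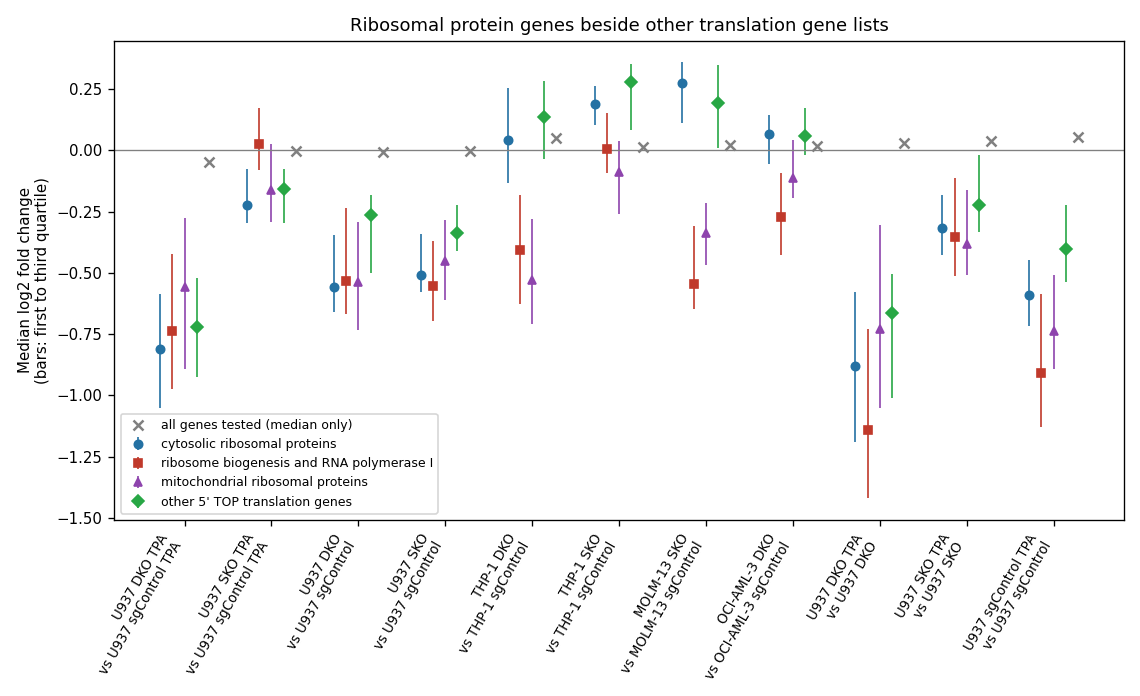
Median log2 fold change with the middle 50% of genes (bars) for cytosolic ribosomal protein genes, ribosome biogenesis, mitochondrial ribosomal proteins and other TOP genes in 11 comparisons, with the median of all genes as crosses. In MOLM-13 SKO the ribosomal protein median is 0.27 and the biogenesis median -0.55, while both lie near -0.5 in U937 DKO and SKO.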

How the data were processed

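The authors deposited whole-number read counts per gene in 2 tables, not normalized. Per the file headers, untreated U937 and THP-1 libraries were counted by gene name in GENCODE 38 with featureCounts 2.0.6, unstranded, with paired reads counted singly and multi-mapping or multi-gene reads left out; the command for the other table is not given in the sources used here, but its gene rows were the same. Per the submitters' processing notes, fastp 0.23.4 and STAR 2.7.11b (hg38) were used before. No value column was left unused.

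The test was that of edgeR 4.0.16 in R 4.3.3 (filterByExpr, trimmed mean of M-values, quasi-likelihood test, Benjamini-Hochberg at 0.05), with 1 fit per line and treatment, and fits of 18 libraries for TPA effects and for differences of effects. The fits were tested on simulated data. All replicate pairs differed by more than sampling noise. Replicate numbers did not pair the libraries, since no comparison had correlations of deviations over 0.1 in every pair. Neighbour and chromosome medians rest on genes other than members whose mean log2 CPM reached 2. Genes were named by a rule that takes the 3 highest and 3 lowest members past the test in a comparison, the paralogs, members of known role and up to 3 genes of each list; others named for their position were added after values were seen. For 1 member, included in the counts, values are not reported here. The members and lists were chosen with earlier results of these data known. Alternatives were DESeq2 1.42.0 as the test, its size factors, no low-count filter, a replicate block, fewer groups in the fit and each library left out.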

Additional observations from a re-analysis of the deposited data

Results flagged for a closer look

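Differences between effects were tested for all members, and these stood out. The SKO effect was lower in U937 than in THP-1 for 67 members and higher for 4 (RPS27L, RPL10A, RPL10 and RPS24); RPL10 did not pass without THP-1 sgControl replicate 1, U937 sgControl replicate 3, U937 SKO replicate 2 or U937 SKO replicate 3, each in turn (log2 0.10 to 0.14, edgeR adjusted p 0.067 to 0.259). The DKO effect was lower in U937 for 57 members and higher for 7, RPL10A by 1.17 on the log2 scale. The log2 change with TPA was higher in SKO than in sgControl for 61 members and lower for 1, RPS27L, which rose by 0.24 in SKO and by 1.00 in sgControl. In DKO the change with TPA was lower than in sgControl for 51 members and higher for 6. No group had 4 or more libraries, so single libraries were not screened for standing apart.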

How the results depend on the processing

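Of 454 alternative member counts over 38 results, 441 stayed within 1.5 times the value reported; no named member changed sign in 1262 alternatives, and 28 no longer passed, all of RPL36A, RPL26, RPL10, RPL39L, RPL17 or RPS2. With only the compared groups fitted, 10 members were higher in THP-1 DKO than SKO. In OCI-AML-3 DKO, 14 were higher with no low-count filter, 7 to 15 with a library left out, and 3 to 5 lower. Leaving out a library gave 4 to 8 lower in THP-1 SKO, and 2 to 5 higher for the SKO effect in U937 minus THP-1; without U937 sgControl replicate 3, the member median of THP-1 minus U937 sgControl was -0.06. The share in THP-1 DKO minus SKO turned to -0.748 with the scaled total. The subunit ratio turned sign with the median member in U937 DKO (-0.00301 against sgControl, -0.0372 against SKO) and in THP-1 (-0.110 for SKO and 0.0135 for DKO against sgControl, 0.124 for DKO against SKO), with counts not divided by length in THP-1 DKO (0.0282), and without RPL10A and X-linked members for TPA in U937 DKO (-0.00656); the cause was not tested. The replicate block moved 0 of 38 member counts by over 1.5 times and changed 1 call of a named member, RPL36A in U937 DKO TPA (log2 0.40). Genes under 3 CPM per kilobase are limited by depth.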
